A study of Mus musculus with 6 samples.

Results

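The 10 genes described here carry the glutathione and thioredoxin defence of the liver against peroxides and reactive electrophiles. They are Gclc, Gclm, Gss, Gsr, Gpx1, Gpx4, Nqo1, Srxn1, Txnrd1 and Nfe2l2, and they were taken by symbol from the 55414 annotated genes of the deposited table, where each symbol matched 1 gene. Livers came from 12-week-old male mice fasted for 16 hours, and every library held RNA pooled from 2 mice. The control group carried the floxed genotype (Gapfl) and drank plain water. A group with the genotype named GapAlb KO, described in the series title as hepatocyte-specific for GAPDH, also drank plain water, and another group of that genotype drank water with 5% serine. Each of the 3 groups had 2 libraries. The Alb in the genotype name is not spelled out in the labels, and the other liver cell types would keep the gene in a hepatocyte-specific deletion. No control mice on serine were analysed here.

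Glutathione is a tripeptide built in 2 steps: glutamate-cysteine ligase, with its catalytic subunit Gclc and modifier subunit Gclm, joins glutamate to cysteine, and glutathione synthetase (Gss) adds glycine. Glutathione peroxidases such as Gpx1 and Gpx4 oxidise it while they reduce peroxides, and glutathione reductase (Gsr) restores it with NADPH. Thioredoxin reductase (Txnrd1) restores thioredoxin, also with NADPH, and sulfiredoxin (Srxn1) repairs overoxidised peroxiredoxins. The transcription factor NRF2, the product of Nfe2l2, is held low by KEAP1 and controls many of these genes through antioxidant response elements, Nqo1 being its most used reporter. Cysteine and glycine, which glutathione contains, can both be made with carbon or nitrogen from serine.

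The steps between low FPKM values (fragments scaled to gene length and library total) implied 17250000 to 19200000 fragments per library. Gapdh stood at 1091 and 1391 FPKM in the controls, 23.8 and 17.0 in the knockouts on water and 20.0 and 23.5 in the knockouts on serine. Albumin and the other 9 hepatocyte markers were measured in every library, with a summed level of 59834 to 77966 FPKM. The lists for macrophages, stellate cells, endothelium and bile duct summed to at most 197 FPKM each, and Spp1, at 7.11 to 18.5 FPKM, was the most abundant of the 10 bile duct markers. Sox9 was at 3.0 and 2.32 FPKM in the controls and at 0.35 to 0.66 FPKM in the knockouts, Cldn7 reached 1.02 FPKM in 1 control library, and the other 7, Krt7, Krt19, Epcam and Cftr among them, stayed under 1 FPKM in every library. Blood markers, mostly haemoglobin genes, ranged from 736 FPKM in knockout water replicate 1 to 1605 in knockout water replicate 2. Fewer cells of a type and less RNA per cell cannot be told apart in these bulk samples. Nothing in the labels says more about how the pools were formed, so p-values measure the spread between pools.

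All 10 genes passed the filter of a mean of 1 FPKM, as did 11134 genes in all. Per length, the selenium-dependent peroxidase Gpx1, which reduces hydrogen peroxide, was the most abundant member in every group and Nqo1 the least. Gpx1 made up 67.2% to 77.0% of the summed FPKM of the 10 genes. In controls the order of mean FPKM ran from Gpx1 (1291) through Gpx4 (302), Gclm (63.7), Gclc (55.7), Txnrd1 (52.7), Gss (29.0), Gsr (28.8), Srxn1 (28.5) and Nfe2l2 (23.5) to Nqo1 (2.66). Gclc and Txnrd1 overlapped in that order, as did Gss with Gsr and Gsr with Srxn1. In the knockouts on water Gclm and Gclc held places 6 and 8 in place of 3 and 4, and each overlapped Gsr, which lay between them. Nqo1 rested on an implied 55 to 92 fragments per library, with a counting error of 10.4% to 13.5%. Every other member rested on at least 839 fragments.

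**Figure D1:**
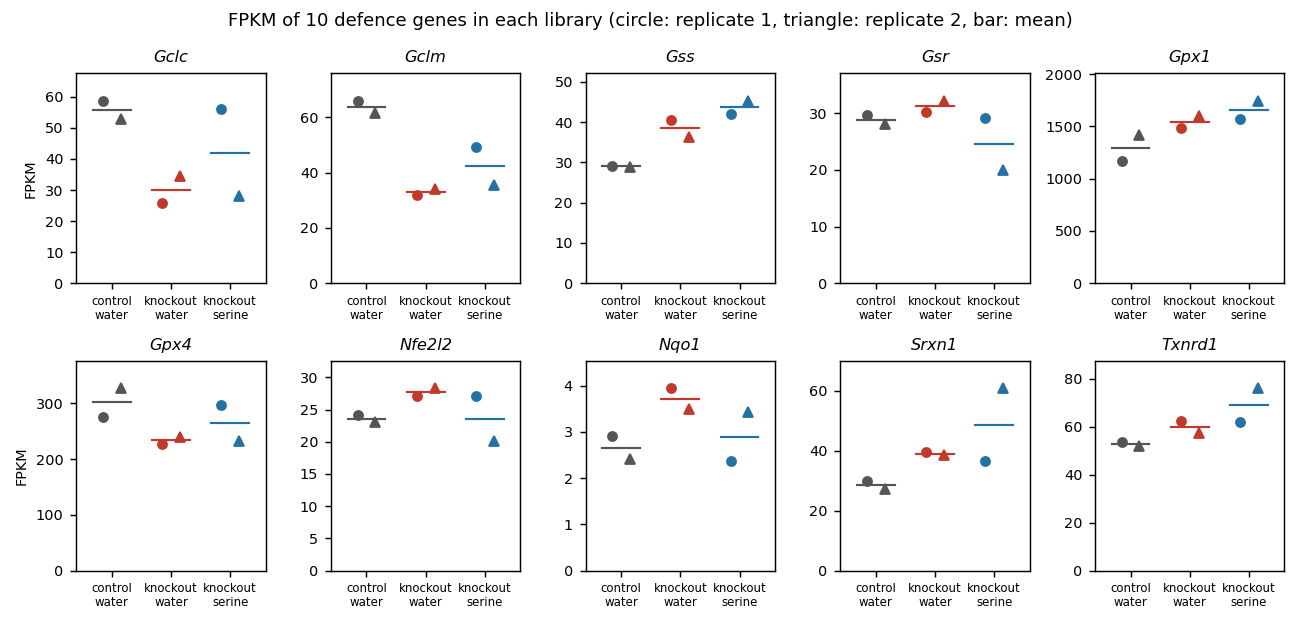
FPKM (y axis, linear from 0, a scale of its own in each panel) of the 10 genes in the 6 libraries, with a circle for replicate 1, a triangle for replicate 2 and a bar for the mean of a group. Gclc and Gclm lie lower in both knockout libraries on water than in both controls, Gss, Srxn1 and Txnrd1 lie higher, and the serine libraries lie far apart for Gclc and Srxn1.

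The first comparison set knockouts on water against controls on water. The subunits of glutamate-cysteine ligase were both near 0.5 times their control level, while the next enzyme of the route, Gss, and the repair enzyme Srxn1 lay higher, but no member passed the test across all genes. Both knockout libraries stood outside the control range for all 10 genes, 7 higher and 3 lower, where 55.4% of all genes tested did so, 34.4% higher and 20.9% lower. With median-of-ratios scaling Gsr and Gpx1 overlapped the controls, which left 5 higher and 3 lower beside 54.9% of all genes. A positive log2 change was found for 7 of the 10 and for 58.9% of all genes. In limma with Benjamini-Hochberg adjustment 0 of the 10 passed, where 1.21% of all genes did, 0.808% higher and 0.404% lower. At an unadjusted p under 0.05 there were 3 members, Gclm and Gclc lower and Gss higher, beside 21.6% of all genes, 14% higher and 7.63% lower. The median log2 change of the 10 was 0.21, and that of all genes 0.08. With 2 libraries against 2, an exact two-sided permutation test of a single gene cannot go below 0.333. The intervals given below are unadjusted 95% intervals of the same limma fit.

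Gclm, on chromosome 3 (122039206 to 122064381, plus strand, GRCm39), measured 66.0 and 61.5 FPKM in the control pools against 31.9 and 34.0 FPKM in knockout pools given water. The groups were far apart, and the knockout mean was 0.516 times the control mean. The log2 change was -0.94 (SE 0.18, 95% interval -1.37 to -0.52, limma adjusted p = 0.0635). This was the smallest p among the members, rank 238 of the genes tested. Over the alternatives its adjusted p ranged from 0.0414 to 0.321. It was under 0.05 with the filter at 5 FPKM (0.0479), with only the 4 libraries compared (0.0414) and without serine replicate 1 (0.0433) or 2 (0.0423). It was 0.106 with no variance trend, 0.118 with the replicate block, 0.145 with no filter and 0.178 to 0.321 without 1 of the libraries compared.

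Gclc, on chromosome 9 (77661817 to 77701767, plus strand, GRCm39), measured 58.8 and 52.7 FPKM in the control pools against 25.8 and 34.4 FPKM in knockout pools given water. The groups did not overlap, but the knockout pools differed from each other more than the controls did. The log2 change was -0.89 (SE 0.32, 95% interval -1.66 to -0.12, adjusted p = 0.182). The ratio of Gclc to Gclm within a library was 0.891 and 0.857 in the controls and 0.811 and 1.01 in the knockouts on water. These groups overlapped in this ratio, which was 1.14 and 0.789 in the knockouts on serine.

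Gss, on chromosome 2 (155405101 to 155434730, minus strand), stood at 29.1 and 29.0 FPKM in the control pools against 40.6 and 36.3 FPKM in knockout pools given water. Both knockout libraries were higher (log2 change 0.40, SE 0.13, 95% interval 0.09 to 0.71, adjusted p = 0.153). The ratio of Gss to Gclc was 0.494 and 0.549 in the controls against 1.57 and 1.05 in the knockouts on water. Within each knockout library on water, Gss was thus above Gclc per length, and within each control library below it. With serine the ratio was 0.749 in replicate 1 and 1.61 in replicate 2, so Gss was below Gclc in replicate 1 and above it in replicate 2. Gsr, on chromosome 8 (34142551 to 34188191, plus strand), stood at 29.6 and 28.0 FPKM in the control pools against 30.3 and 32.2 FPKM in the knockouts, with a log2 change of 0.11 (95% interval -0.35 to 0.58, adjusted p = 0.769).

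The peroxidases lay on opposite sides of their control levels, within intervals that include 0. Gpx1, on chromosome 9 (108216102 to 108217542, plus strand), stood at 1166 and 1416 FPKM in the control pools against 1485 and 1604 FPKM in knockout pools given water (log2 change 0.26, 95% interval -0.10 to 0.63, adjusted p = 0.358). Gpx4, the peroxidase that acts on phospholipid peroxides in membranes and guards against ferroptosis, lies on chromosome 10 (79883000 to 79892273, plus strand). It stood at 276 and 328 FPKM in the control pools against 226 and 240 FPKM in the knockouts (log2 change -0.37, 95% interval -0.76 to 0.03, adjusted p = 0.260). The ratio of Gpx1 to Gpx4 was 4.22 and 4.32 in the controls and 6.56 and 6.68 in the knockouts on water. Spread was small within these groups, but in the knockouts on serine the ratio was 5.30 and 7.55, on either side of the range on water. Red blood cells also carry GPX1. The summed blood markers were lower than in the controls in 1 knockout library on water and higher in the other, while Gpx1 was higher in both, and their part in the result was not tested.

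The last 4 members are Nfe2l2, Srxn1, Txnrd1 and Nqo1, and none of them passed the test. Nfe2l2, on chromosome 2 (75505857 to 75534985, minus strand), stood at 24.1 and 23.0 FPKM in the control pools against 27.1 and 28.4 FPKM in the knockouts (log2 change 0.23, 95% interval -0.18 to 0.64, adjusted p = 0.470). NRF2 is regulated mainly through the stability of its protein, which these data do not measure. Srxn1, on chromosome 2 (151947436 to 151953296, plus strand), stood at 29.9 and 27.2 FPKM in the control pools against 39.5 and 38.6 FPKM in the knockouts. Its groups did not overlap, with a log2 change of 0.45 (SE 0.24, 95% interval -0.12 to 1.02, adjusted p = 0.330).

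Txnrd1, on chromosome 10 (82669785 to 82733546, plus strand), stood at 53.5 and 51.8 FPKM in the control pools against 62.5 and 57.5 FPKM in knockout pools given water (log2 change 0.18, 95% interval -0.16 to 0.53, adjusted p = 0.496). Nqo1, a quinone reductase, lies on chromosome 8 (108114857 to 108129838, minus strand). It stood at 2.91 and 2.41 FPKM in the control pools against 3.95 and 3.49 FPKM in knockout pools given water (log2 change 0.42, 95% interval -0.14 to 0.98, adjusted p = 0.350).

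**Figure D2:**
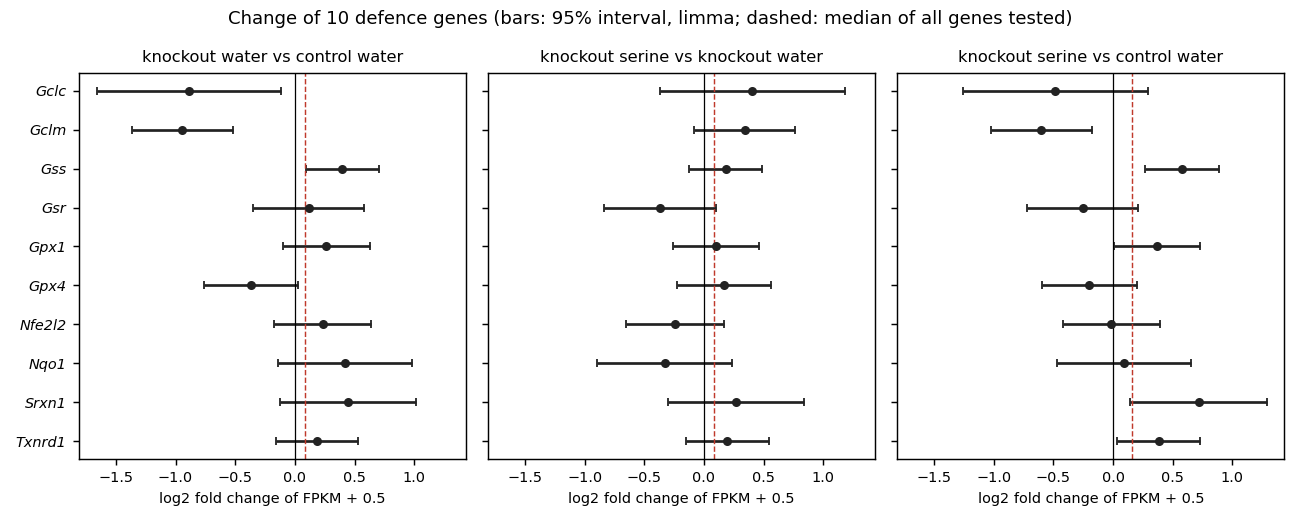
Log2 fold change of FPKM + 0.5 (x axis) of the 10 genes (y axis) in the 3 comparisons, with unadjusted 95% intervals from limma as bars and the median of all genes tested as a dashed line. In the comparison of knockouts with controls on water the intervals of Gclm and Gclc lie below 0 and that of Gss above it; in the comparison of serine with water all 10 intervals include 0.

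Gclm and Srxn1 are both textbook targets of NRF2, and they stood on opposite sides of their control level, so their promoters are shown. The windows run from 250 bases before to 50 bases after a RefSeq transcription start, on GRCm38.p6, and RefSeq windows were matched for 8 of the 10 genes, with Gclc and Gsr not matched. Capitals mark matches, on either strand, to TGACNNNGC, the core of the antioxidant response element, or to TGANTCAGC, a related form that contains the AP-1 core. A sequence can match both motifs at once.
Gclm, chr3:122245307-122245606, plus strand: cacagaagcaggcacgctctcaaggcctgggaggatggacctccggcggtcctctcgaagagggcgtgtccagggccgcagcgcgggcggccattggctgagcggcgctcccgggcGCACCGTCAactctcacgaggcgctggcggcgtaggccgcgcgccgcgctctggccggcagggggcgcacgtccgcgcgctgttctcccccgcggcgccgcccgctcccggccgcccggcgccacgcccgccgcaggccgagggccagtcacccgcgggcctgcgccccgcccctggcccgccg
Srxn1, chr2:152105274-152105573, plus strand: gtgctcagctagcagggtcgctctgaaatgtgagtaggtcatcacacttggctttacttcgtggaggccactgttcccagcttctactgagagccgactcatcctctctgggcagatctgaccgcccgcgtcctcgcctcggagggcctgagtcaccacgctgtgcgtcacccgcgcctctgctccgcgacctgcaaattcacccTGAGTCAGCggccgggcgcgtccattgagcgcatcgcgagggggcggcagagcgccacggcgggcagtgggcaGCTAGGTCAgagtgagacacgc
The Gclm window held 1 match, TGACGGTGC, on the opposite strand at position -134 from the start. The Srxn1 window held TGAGTCAGC at position -45 and TGACCTAGC on the opposite strand, beginning 29 bases into the transcript. Of the other windows, 1 of Txnrd1 held TGACAAAGC and that of Nfe2l2 held TGACTCCGC, while those of Gss, Gpx1, Gpx4 and Nqo1 held no match. Among 32851 windows of this length, 12.4% held the first motif, 1.19% the second and 13.0% either. A match describes letters and is not a measured binding site, and elements farther from the start lie outside these windows.

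The second comparison set serine against plain water within the knockouts. In limma with Benjamini-Hochberg adjustment 0 of the 10 genes passed, as did 0% of all genes, and at an unadjusted p under 0.05 there were 0 members beside 7.23% of all genes, 5.19% higher and 2.04% lower. With serine the libraries of 5 members stood outside the range on water, Gclm and Gss higher and Gsr, Nqo1 and Nfe2l2 lower, where 37.8% of all genes did so, 26.9% higher and 10.9% lower. For Nfe2l2 the nearest libraries were at 27.07 FPKM with serine and 27.11 on water, with counting errors of 2.39% and 2.38%. For Nqo1 they were at 3.42 and 3.49 FPKM, with counting errors of 11.7% and 11.3%. Both margins were thus smaller than the counting error. With median-of-ratios scaling Gclm and Gss overlapped the range on water, which left 0 higher and 3 lower beside 35% of all genes. A positive log2 change was found for 7 of the 10 and for 63.9% of all genes. The median log2 change of the 10 was 0.17, and that of all genes 0.08. All 10 intervals included 0, and the widest, that of Gclc, reached 1.18 on the log2 scale.

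Gclm stood at 49.2 and 35.6 FPKM with serine, between its levels in the knockouts on water and the controls (log2 change 0.34 against water, 95% interval -0.08 to 0.77, adjusted p = 0.729). Gclc stood at 56.0 FPKM in serine replicate 1, inside the control range, and at 28.1 FPKM in serine replicate 2, inside the range of the knockouts on water. The 2 pools of that group differed 1.98-fold for this gene, a gap larger than that of 95.3% of genes or equal to it. Its log2 change was 0.41 (95% interval -0.37 to 1.18, adjusted p = 0.799), -0.085 without serine replicate 1 and 0.90 without serine replicate 2. The direction of the Gclc difference therefore rested on which pool was kept.

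Gss stood at 41.9 and 45.3 FPKM with serine, above both other groups in each library (log2 change 0.18 against water, 95% interval -0.13 to 0.49, adjusted p = 0.778). Gsr stood at 29.1 and 19.9 FPKM (log2 change -0.37, 95% interval -0.83 to 0.10, adjusted p = 0.733). Its lower value, again in serine replicate 2, was the lowest of the 6 libraries. Gpx1 stood at 1572 and 1747 FPKM and Gpx4 at 297 and 231 FPKM, and both overlapped the knockouts on water.

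Srxn1 stood at 36.5 and 60.9 FPKM with serine, on either side of the knockouts on water, with a log2 change of 0.27 (95% interval -0.30 to 0.84, adjusted p = 0.819) that was -0.096 without serine replicate 2. Nfe2l2 stood at 27.1 and 20.1 FPKM, Nqo1 at 2.37 and 3.42 FPKM and Txnrd1 at 62.0 and 76.2 FPKM. The serine pools were farther apart than the pools of either other group for 8 of the 10 genes, the exceptions being Gss and Gpx1. The share of all genes for which this held was not computed, so the count is not read as particular to these genes. The median gene differed between pools by 0.23 on the log2 scale with serine and by 0.21 in each of the other groups. On the log2 scale, serine replicate 1 was nearer to the control mean than to that of the knockouts on water for 5 of the 10 genes, where it was so for 38.8% of all genes. Serine replicate 2 was nearer to the control mean for 2, Gsr and Nfe2l2, where it was so for 32.5% of all genes.

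The third comparison set knockouts on serine against the same controls on water, so it shares libraries with both comparisons above, and genotype and serine differ together in it. In limma 0 of the 10 genes passed, where 1.18% of all genes did, 0.853% higher and 0.323% lower. At an unadjusted p under 0.05 there were 5 members, 4 higher and 1 lower, beside 25.7% of all genes, 19.8% higher and 5.95% lower. The libraries of 5 members stood outside the control range, 4 higher and 1 lower, beside 57% of all genes, 41.5% higher and 15.5% lower. With median-of-ratios scaling the split was 3 higher (Gss, Srxn1 and Txnrd1) and 4 lower (Gclm, Gclc, Gsr and Gpx4) beside 52.9% of all genes. Nqo1, Nfe2l2 and Gpx1 overlapped the controls under that scaling. A positive log2 change was found for 5 of the 10 and for 66.3% of all genes. The median gene was shifted by 0.16 on the log2 scale in this comparison, and the median of the 10 was 0.04.

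Gss had the largest margin over its error, with a mean of 43.6 FPKM against 29.0 FPKM in controls (log2 change 0.58, SE 0.13, 95% interval 0.27 to 0.89, adjusted p = 0.0672). Its adjusted p was 0.0497 with the filter at 5 FPKM and 0.0520 to 0.243 under every other alternative. Srxn1 had a log2 change of 0.72 (SE 0.24, 95% interval 0.15 to 1.29, adjusted p = 0.127), which was 1.08 (adjusted p = 0.0485) without serine replicate 1 and 0.35 (adjusted p = 0.342) without serine replicate 2. In FPKM, Txnrd1 (log2 change 0.38, adjusted p = 0.164) and Gpx1 (log2 change 0.37, adjusted p = 0.190) were also higher in each serine library than in each control. Gclm remained below both controls, with a log2 change of -0.60 (95% interval -1.02 to -0.18, adjusted p = 0.104). The values of Gclc (-0.48), Gsr (-0.25), Gpx4 (-0.20), Nqo1 (0.091) and Nfe2l2 (-0.013) had intervals that included 0, and their libraries overlapped the controls in FPKM. With median-of-ratios scaling Gclc, Gsr and Gpx4 lay below the controls without overlap. Among the cell markers, the hepatocyte gene Fgb (-1.68, adjusted p = 0.0370) and the bile duct gene Sox9 (-1.85, adjusted p = 0.0485), itself at 2.66 FPKM or less on average, fell against controls in this comparison. For Fgb the call ended without any library other than serine replicate 1 (0.0841 to 0.241), and for Sox9 without any library (0.0563 to 0.241). Of the 15 alternatives, Fgb was called in 6 and Sox9 in 2 of the 14 that give it a value. Of the 10 hepatocyte markers 2 were positive, beside 66.3% of all genes, and the median was -0.25. The positive ones were Cps1 (1.23, adjusted p = 0.0684) and Ass1 (0.78, adjusted p = 0.0919), both urea cycle enzymes. All 7 tested stellate cell markers were positive, beside 66.3% of all genes, with a median of 0.52, and 0 passed. Of these, 4 were higher at an unadjusted p under 0.05, beside 19.8% of all genes. For 5 both serine libraries stood above both controls, beside 41.5% of all genes. The 10 stellate markers summed to 140 and 113 FPKM in the controls and to 197 and 165 FPKM with serine. On water against controls the hepatocyte markers had a similar median, -0.26, and 0 of the 10 passed. There 3 were positive, Cps1 and Ass1 among them. Fgb was at -1.16 on water (adjusted p = 0.0576) and was called in 4 of the 15 alternatives. Sox9 was at -1.51 on water (adjusted p = 0.0651). Of the 7 stellate markers 3 were positive on water, with a median of -0.047. The part of these markers in the members' values was not tested in either comparison. In the third comparison the sign for Nfe2l2 turned with TPM scaling (0.065) and that for Nqo1 with median-of-ratios scaling (-0.0593).

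Other genes of the pathway were taken from 8 lists and are given for knockouts against controls on water, beside a median log2 change of 0.08 over all genes. In that comparison 1.21% of all genes passed, 0.808% higher and 0.404% lower, and 58.9% had a positive log2 change. Of 19 tested genes of other glutathione handling, 0 passed, 8 were positive and the median was -0.11. The smallest p belonged to Oplah, the oxoprolinase that returns glutamate from glutathione breakdown (0.46, adjusted p = 0.111), the glutaredoxin gene Glrx (0.41, adjusted p = 0.128) and the transferase gene Gstk1 (-0.40, adjusted p = 0.207). Of 19 thioredoxin and peroxiredoxin genes 0 passed, 9 were positive and the median was -0.06. The mitochondrial reductase Txnrd2 stood at 28.4 and 22.6 FPKM in the control pools against 15.3 and 17.0 FPKM in knockout pools given water (-0.63, adjusted p = 0.109). The cytosolic enzyme Txnrd1 was thus above its controls where Txnrd2 was below them. Txnip, which binds thioredoxin, measured 88.0 and 82.5 FPKM in the control pools against 266 and 131 FPKM in knockout pools given water (1.13, adjusted p = 0.125). Its value was 0.62 without knockout water replicate 1 and 1.63 without replicate 2. Prdx6, a peroxiredoxin reduced by glutathione, was at -0.52 (adjusted p = 0.128).

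Of 6 genes of other glutathione peroxidases, catalase and dismutases 0 passed, 3 were positive and the median was -0.06. The mitochondrial dismutase gene Sod2 was at 0.54 (adjusted p = 0.174), the cytosolic Sod1 was at -0.25 (adjusted p = 0.346) and its copper chaperone Ccs was at -0.17 (adjusted p = 0.434). Of 19 tested selenoprotein and selenocysteine genes 0 passed, 8 were positive and the median was -0.09. Selenow (-0.64, adjusted p = 0.117), Selenos (-0.36, adjusted p = 0.178) and Sephs2, which makes the selenium donor (-0.28, adjusted p = 0.279), were lower in each knockout library on water than in both controls.

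Among 29 other NRF2 targets, 1 passed as higher and 0 as lower, 14 were positive and the median was -0.02. At an unadjusted p under 0.05, 8 were higher and 5 lower, beside 14% and 7.63% of all genes. Both knockout libraries stood above the controls for 11 and below them for 8, beside 34.4% and 20.9% of all genes. The gene that passed was Hmox1, the heme oxygenase, which stood at 9.26 and 7.35 FPKM in the control pools against 21.7 and 21.0 FPKM in knockout pools given water (log2 change 1.32, SE 0.19, limma adjusted p = 0.0393). It remained at 17.7 and 23.8 FPKM with serine (1.26 against controls, adjusted p = 0.0478). The call on water ended without either control library or either knockout library on water (adjusted p 0.158 to 0.260). That on serine ended without any library other than serine replicate 1 (0.106 to 0.241). With the replicate block the adjusted p was 0.104 on water and 0.103 on serine, with no variance trend 0.0691 and 0.080, and with no filter 0.128 and 0.120. The call on serine also ended with median-of-ratios scaling (0.0682) and with only the 4 libraries compared (0.106). Ugdh, which makes UDP-glucuronate for conjugation, stood at 44.1 and 49.6 FPKM in the controls, 89.3 and 74.5 FPKM in knockout pools given water and 110 and 125 FPKM with serine. Against controls it was not called on water (0.80, adjusted p = 0.0639), but was with TPM scaling (0.0448) and with the filter at 5 FPKM (0.0494). On serine it was called against controls (1.31, adjusted p = 0.0370). That call ended with median-of-ratios scaling (0.0504), no variance trend (0.0729), the replicate block (0.0897), only the 4 libraries compared (0.0938), no filter (0.111) and without any library other than serine replicate 1 (0.0953 to 0.241). Osgin1, a stress-induced growth inhibitor, went the other way in value, with 33.1 and 28.6 FPKM in the controls and 13.3 and 7.05 FPKM in knockout pools given water (-1.62, adjusted p = 0.0895). The conjugate exporter Abcc3 was at 0.52 (adjusted p = 0.0794) and Pgd, an NADPH-forming enzyme, was at 0.69 (adjusted p = 0.0847).

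Of 15 NRF2 regulators and partners 0 passed, 12 were positive and the median was 0.20. The small MAF partners differed, with Mafk at 0.78 (adjusted p = 0.0784) and Mafg at -0.52 (adjusted p = 0.107), and the coactivator gene Crebbp was at 0.81 (adjusted p = 0.162). Of 12 genes of NADPH supply 0 passed on water, 7 were positive and the median was 0.03. Idh2, the mitochondrial NADPH-forming isocitrate dehydrogenase, stood at 49.6 and 50.1 FPKM in the control pools against 106 and 110 FPKM in knockout pools given water (1.10, adjusted p = 0.0552). On water Idh2 was called in 5 of the 15 alternatives. Among them were TPM scaling (0.0408), the filter at 5 FPKM (0.0432) and only the 4 libraries compared (0.0349). With serine it stood at 113 and 166 FPKM and was called against controls (1.45, adjusted p = 0.0374), but not with median-of-ratios scaling (adjusted p = 0.0600) or the replicate block (0.0897). The call also ended with no variance trend (0.0729), only the 4 libraries compared (0.104), no filter (0.111) and without any library other than serine replicate 1 (0.0960 to 0.241). Nnt, the mitochondrial transhydrogenase, was at -0.76 (adjusted p = 0.152) and the folate enzyme Aldh1l1 was at 0.49 (adjusted p = 0.154). Nnt is listed as 2 genes, of which 1 was at 0 in every library.

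Of 12 genes of cysteine supply, 1 passed as higher and 0 as lower, 4 were positive and the median was -0.25. At an unadjusted p under 0.05, 2 were higher and 5 lower, beside 14% and 7.63% of all genes. Slc3a2, the heavy chain shared by several amino acid exchangers, the cystine carrier among them, stood at 15.9 and 14.8 FPKM in the control pools against 32.1 and 33.1 FPKM in knockout pools given water (1.06, SE 0.13, limma adjusted p = 0.0306). On serine it stood at 36.3 and 34.2 FPKM (1.17 against controls, adjusted p = 0.0350). The call on water ended without either control library or either knockout library on water (adjusted p 0.138 to 0.236), and that on serine without any library other than serine replicate 1 (0.0998 to 0.241). With the replicate block the adjusted p was 0.0834 on water and 0.0897 on serine, with no variance trend 0.0581 and 0.0729, and with no filter 0.0817 and 0.111. The call on serine also ended with only the 4 libraries compared (0.102). The related heavy chain Slc3a1 was at -1.43 (adjusted p = 0.0513), and it was called as lower in 3 of the 15 alternatives (lowest adjusted p 0.0432). Slc7a11, the gene of the cystine carrier's own chain, was at 0.03 FPKM or less in every library and was not tested. Cbs, which joins serine to homocysteine on the way to cysteine, stood at 401 and 357 FPKM in the control pools against 192 and 244 FPKM in knockout pools given water (-0.81, adjusted p = 0.0654), and Mpst, a cysteine-degrading sulfurtransferase, was at -0.85 (adjusted p = 0.110).

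For serine against water within the knockouts, 0 genes of the 8 lists passed. On serine against controls the genes of these lists that passed were Hmox1, Ugdh, Idh2 and Slc3a2, all higher.

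**Figure D3:**
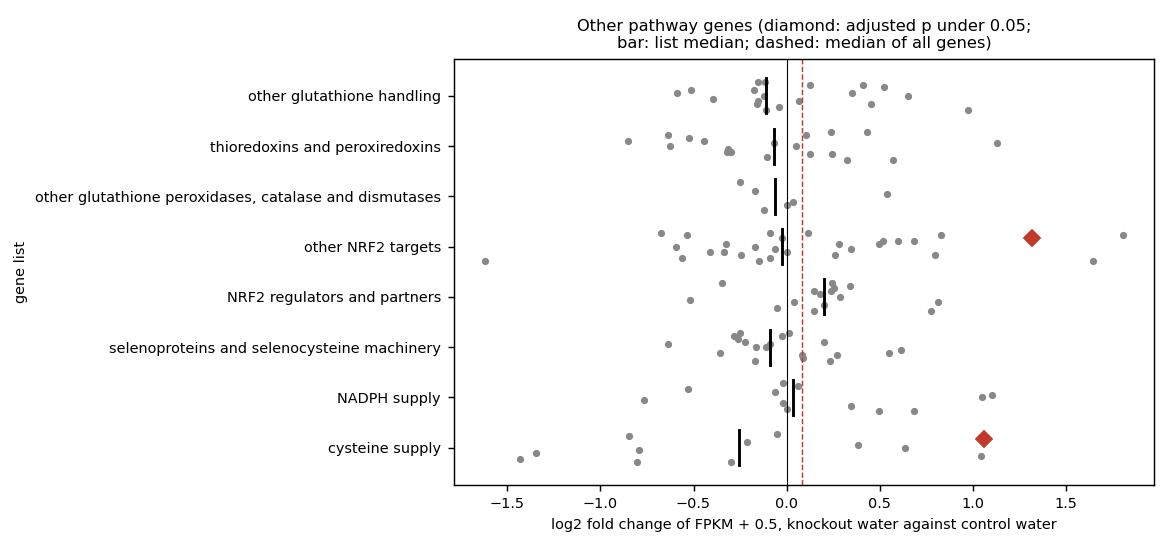
Log2 fold change of FPKM + 0.5 between knockouts and controls on water (x axis) for the tested genes of 8 pathway lists (y axis), with a diamond for an adjusted p under 0.05, a bar for the list median and a dashed line for the median of all genes. Hmox1 and Slc3a2 are the diamonds, and the genes of most lists lie on both sides of 0.

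**Figure D4:**
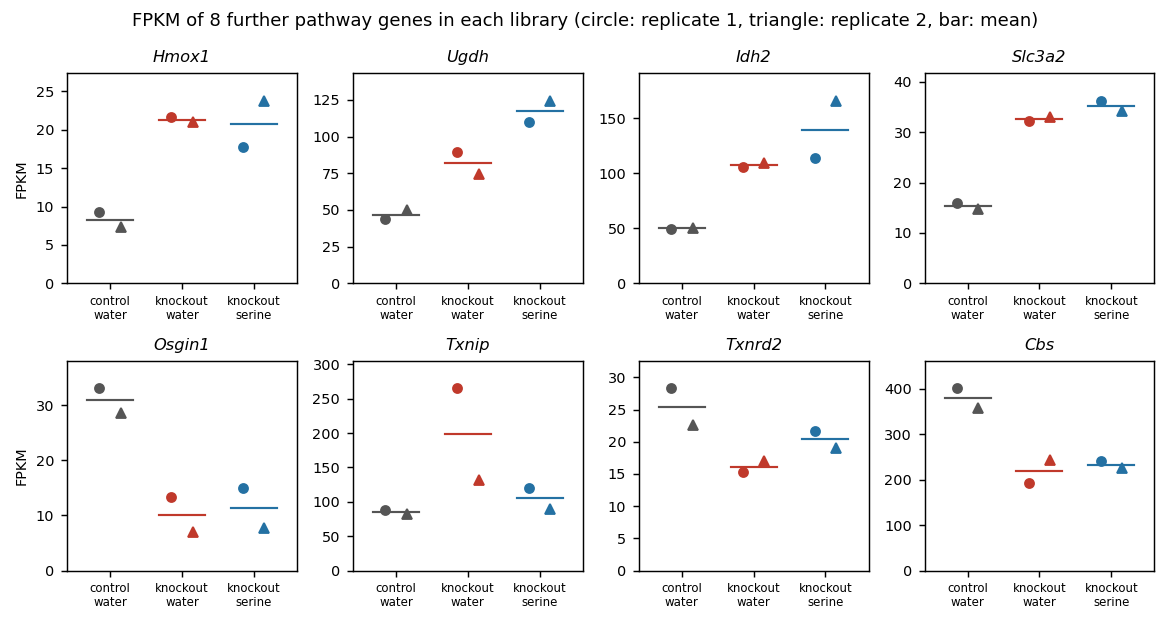
FPKM (y axis, linear from 0) of 8 further genes in the 6 libraries, with a circle for replicate 1, a triangle for replicate 2 and a bar for the group mean. Hmox1, Ugdh, Idh2 and Slc3a2 lie higher in all 4 knockout libraries than in both controls, and Osgin1, Txnrd2 and Cbs lie lower.

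The genes whose log2 level over the 6 libraries was most like that of Gclm were Tmem191c (Pearson r = 0.997), Tsc22d3 (0.996) and Creg1 (0.994). Tsc22d3 stood at 62.8 and 58.2 FPKM in the controls, 32.1 and 34.3 FPKM in knockout pools given water and 46.5 and 33.4 FPKM with serine. For Nqo1 they were Haus2 (0.996), Trim39 (0.982) and Rtf2 (0.981). These are descriptions over 6 libraries in 3 groups, and 141 genes had an r above 0.95 with Gclm and 15 with Nqo1.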

How the data were processed

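The authors deposited FPKM values per gene for 6 libraries. The submitters' processing notes name bcl2fastq, HISAT2 2.0.5 and GRCm39, and for the tool that computed FPKM, the annotation and strand use the entry is: not given in the sources used here. Of 22014 genes detected at all, the 11134 averaging at least 1 FPKM entered the test. Limma 3.58.1 (R 4.3.3, eBayes with trend) took log2(FPKM + 0.5) of the 6 libraries and estimated a mean for each of the 3 groups, leaving 3 residual and 3.46 prior degrees of freedom. The fit was tested on simulated data. All p-values are two-sided, and calls use Benjamini-Hochberg adjustment over the whole table at 0.05. Fold changes on this scale understate those of low genes.

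The members and lists were chosen with earlier results of these data known. Named genes were the 10 members, Gapdh, the genes of a list called in any comparison, and up to 3 more per pathway list with the smallest p on water. Depth was inferred from low values of genes of 500 to 1500 bases, as the depth and length offset that best gave whole multiples of 1 fragment. At that choice 76.0% to 79.6% of the 895 to 968 values used were whole multiples within 0.03 beyond rounding. The tolerance alone covers 17.2% to 19.0% there, a share that does not allow for the search. Intervals of counting cover counting error only. The 15 alternatives covered scaling, pseudocount, filter, variance trend, libraries used, a replicate block and each library left out. Promoter windows came from RefSeq on GRCm38.p6 and gene coordinates from the deposited table. The table of unannotated transcripts was not used.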

Additional observations from a re-analysis of the deposited data

How the results depend on the processing

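For the 10 genes in knockouts against controls on water, no log2 change turned its sign under any of the 15 alternatives, and Gclm was called in 4. The number of members called there was 0, and 1 (Gclm) with the filter at 5 FPKM or only the 4 libraries compared, with 0 to 1 when a library was left out. On serine against controls it was 0, and 1 (Gss) with the filter at 5 FPKM, with 0 to 1 when a library was left out, the 1 being Srxn1. For serine against water it was 0 throughout.

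Counts over all genes moved more. On water against controls 135 genes were called, against 226 with TPM scaling, 2 with no filter, 16 with no variance trend, 210 with only the 4 libraries compared, 4 with the replicate block and 7 to 215 with a library left out. On serine against controls 131 were called, against 449 with TPM scaling, 35 with median-of-ratios scaling, 3 with no filter, 450 with the filter at 5 FPKM, 8 with no variance trend, 4 with only the 4 libraries compared, 4 with the replicate block and 4 to 203 with a library left out. Of the calls on water, 66.7% were higher, 76.1% with TPM scaling and 55.6% with median-of-ratios scaling, and of those on serine 72.5%, 86.6% and 42.9%. For serine against water 0 were called, and 0 to 6 with a library left out. The calls of Hmox1 and Slc3a2 on water ended in each of the 4 fits that lacked a compared library, with log2 changes from 1.16 to 1.48 and from 1.01 to 1.11, and also with no filter, no variance trend or the replicate block. The cause was not tested.

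Signs turned for values whose intervals included 0. On serine against controls Nfe2l2 (-0.013) was 0.065 with TPM scaling and -0.22 to 0.20 with a library left out, and Nqo1 (0.091) was -0.0593 with median-of-ratios scaling and -0.13 to 0.32 with a library left out. With a library left out Gclc ranged from -0.97 to 0.0091 and Gsr from -0.52 to 0.015. On serine against water, with a library left out, Gclc ranged from -0.085 to 0.90, Gpx4 from -0.011 to 0.35, Srxn1 from -0.096 to 0.64 and Gapdh from -0.13 to 0.34. Nonoverlapping members on water were 10 with FPKM or TPM scaling and 8 with median-of-ratios scaling, where Gsr and Gpx1 overlapped. Nqo1 fell under the filter at 5 FPKM and has no value there. On water against controls, with a library left out, Gclc ranged from -1.09 to -0.69, Gpx1 from 0.12 to 0.40, Gpx4 from -0.49 to -0.24, Gss from 0.32 to 0.48, Nqo1 from 0.31 to 0.53, Txnrd1 from 0.12 to 0.24 and Gsr from 0.070 to 0.16, and among uncalled list genes Osgin1 from -2.05 to -1.19, Crebbp from 0.52 to 1.11, Sod2 from 0.32 to 0.76, Nnt from -1.04 to -0.49 and Selenow from -0.85 to -0.43.

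Libraries share replicate numbers across groups, but deviations from group means correlated at 0.03, 0.04 and -0.20 between same-numbered libraries, so the numbers were not taken as pairs. With the replicate block 0 of the 10 members were called in any comparison.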
